A study of Mus musculus with 28 samples.

Results

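Connexins are the membrane proteins from which gap junctions are built. The genes described here are Gja1, Gjc1, Gjb2 and Gjb5, found by exact match of their symbols, which are 4 of 18 connexin genes considered here, among the 50600 genes of an RNA-seq table of mouse embryonic fibroblasts (MEFs) and of MEFs on the way to induced pluripotent stem cells. They were selected on their levels and differences in these same 28 libraries, so their levels and differences are given as a description, without a test. Tests are given for connexins, partner genes and neighbouring genes that are not among the 4. Earlier results of these data were known when the lists of connexins and partner genes were made, so their p-values are no independent support.

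The table holds 14 groups of 2 libraries. All cells were primary wild-type mouse fibroblasts that the study derived from embryos carrying Oct4-GFP, a reporter of pluripotency. They were control MEFs, MEFs given SB203580, an inhibitor of the p38 MAP kinases (p38i), and cells on days 1, 3, 5 and 7 after infection with retroviruses for Oct4, Klf4 and Sox2 and a change to the chemically defined medium iCD1. On these days the cells had received DMSO alone (DMSO, the control), p38i during the induction (p38i) or p38i before it only (pre-p38i). DMSO is named by the study and not by the sample labels. The control MEFs are called untreated here because they had no p38i, and the labels do not say whether they received DMSO. Nothing in the labels says that the 2 libraries of a group came from separate cultures, so p-values measure only the spread between these libraries, which may be technical. MEFs and day 1 cells differ in infection, medium and time at once, and these cannot be told apart.

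A connexin crosses the membrane with both ends in the cytoplasm. Rings of connexins form a hemichannel, and hemichannels of neighbouring cells dock to make a channel through which ions and small metabolites pass. Gja1 encodes Cx43, the widespread connexin of fibroblasts, heart and many epithelia and a known partner of the scaffold ZO-1. Gjc1 encodes Cx45, known from the early heart, its conduction system and smooth muscle. Gjb2 encodes Cx26, which serves the cochlea and the epidermis, and Gjb5 encodes a beta connexin known from skin and the placenta. Cx43 and E-cadherin are both present in pluripotent cells, which are coupled by gap junctions.

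The 4 genes lie on 4 chromosomes. In the coordinates of the file (mm10), Gja1 (ENSMUSG00000050953) is at chr10:56377330-56402513 on the plus strand, Gjc1 (ENSMUSG00000034520) at chr11:102799579-102819700 on the minus strand, Gjb2 (ENSMUSG00000046352) at chr14:57098600-57104702 on the minus strand and Gjb5 (ENSMUSG00000042357) at chr4:127354809-127358181 on the minus strand. No transcript of another gene matched any of them at 95% identity over 200 bases, and no neighbouring gene considered overlapped them. The 250 bases before the RefSeq start (GRCm38.p6) are shown for the 3 genes found in the RefSeq promoter table, because these genes differed so much in level and time course. Capitals mark 3 motifs searched on both strands: TGANTCA, the AP-1 element, GGGCGG, the GC box, and CACCC, the CACCC box. The GC box is a classical Sp1 motif, and CACCC is the core that Klf factors, Klf4 among them, are known to bind.
Gja1, chr10:56377050-56377299, plus strand: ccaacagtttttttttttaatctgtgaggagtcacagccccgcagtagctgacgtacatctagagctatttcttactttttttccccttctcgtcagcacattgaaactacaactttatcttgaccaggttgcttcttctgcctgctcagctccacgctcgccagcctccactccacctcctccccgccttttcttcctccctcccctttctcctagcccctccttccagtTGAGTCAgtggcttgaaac
Gjb2, chr14:57104703-57104952, minus strand: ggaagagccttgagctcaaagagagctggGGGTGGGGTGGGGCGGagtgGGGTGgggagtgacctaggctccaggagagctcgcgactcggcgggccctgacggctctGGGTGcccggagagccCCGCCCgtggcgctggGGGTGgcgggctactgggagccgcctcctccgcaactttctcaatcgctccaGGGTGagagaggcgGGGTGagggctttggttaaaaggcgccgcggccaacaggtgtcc
Gjb5, chr4:127358165-127358414, minus strand: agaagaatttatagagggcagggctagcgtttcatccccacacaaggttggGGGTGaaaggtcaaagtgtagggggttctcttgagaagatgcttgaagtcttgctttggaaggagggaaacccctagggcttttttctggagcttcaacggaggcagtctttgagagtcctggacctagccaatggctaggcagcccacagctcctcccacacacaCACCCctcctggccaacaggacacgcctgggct
The Gja1 window held 1 AP-1 element, 19 bases before the start, and neither of the other motifs. The Gjb2 window held 2 GC boxes and 7 CACCC boxes, none of which share a base, and no AP-1 element. The Gjb5 window held 2 CACCC boxes, at 199 and 33 bases before the start. Of all 32851 promoter windows of this length, 6.75% held TGANTCA, 32.7% held GGGCGG and 52.0% held CACCC. The GC content was 50% for Gja1, 69.2% for Gjb2 and 54.4% for Gjb5, beside a median of 52.4% over all windows, and the CpG counts were 6, 18 and 3 beside a median of 6. A match of letters is not a bound site, and no binding was measured.

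Each deposited value is a whole number, read as TPM, a transcript count scaled for library size and gene length that can be set side by side between genes. Gja1 was the highest of the 4 in every library, with a median of 203 over the 28 libraries and a range of 130 to 406. Gjc1 was present in all 28 libraries too, at 6 to 45 with a median of 13. Gjb5 reached 1 or more in 19 libraries and never exceeded 7. Gjb2 reached 1 or more in 8 libraries, of which only those of the MEFs exceeded 2.

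**Figure D1:**
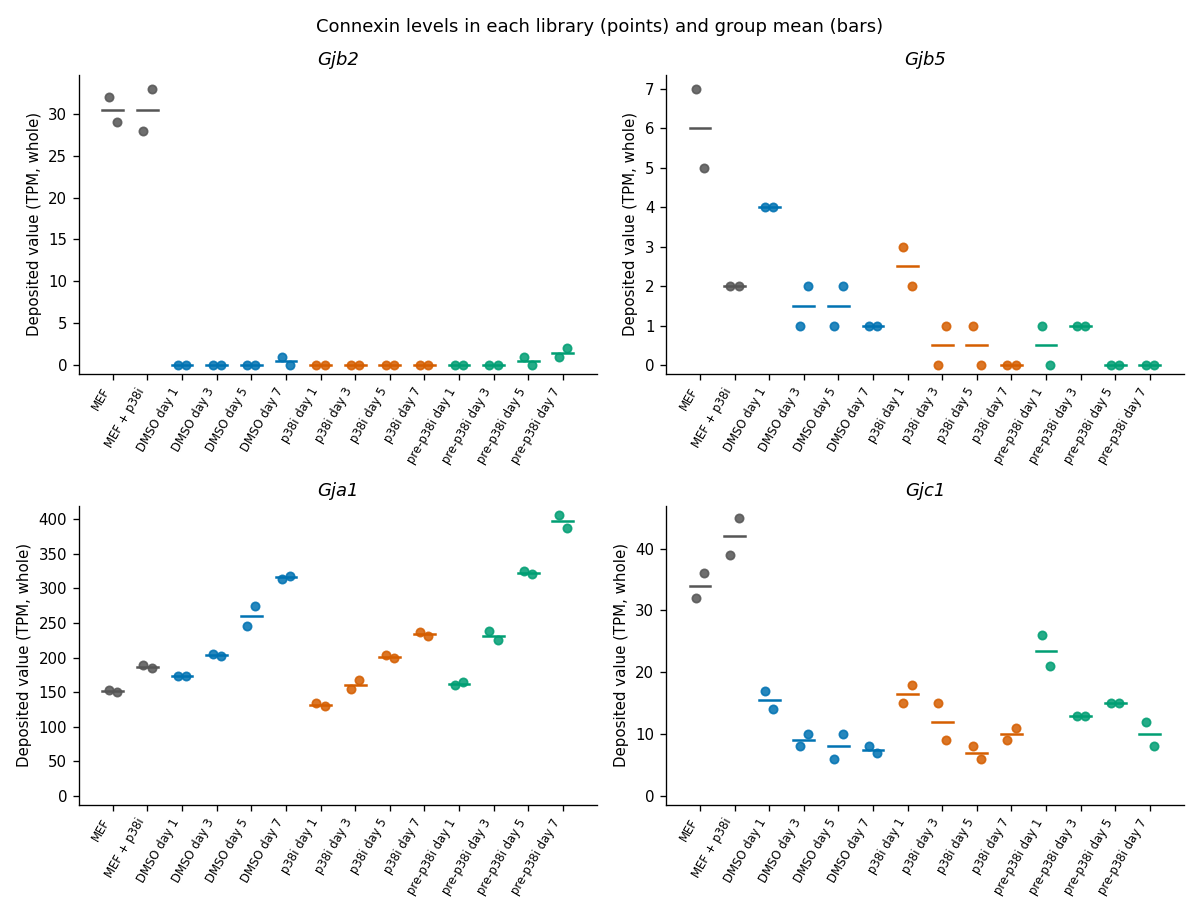
Deposited values (TPM, whole numbers) of Gjb2, Gjb5, Gja1 and Gjc1 in each of the 14 groups, with 1 point for each of the 2 libraries and a bar at their mean, on linear axes. Gjb2 stood at 28 to 33 in the 4 MEF libraries and at 0 to 2 in all others, while Gja1 climbed with the days in each of the 3 conditions.

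The 4 genes took different courses from the MEFs to day 7 of the DMSO control. Gja1 stood at 153 and 150 in the untreated MEFs, at 174 and 173 on day 1, at 205 and 202 on day 3, at 246 and 275 on day 5 and at 314 and 318 on day 7. Each of these pairs lay wholly above the one before it, so the level grew at every sampled day. The mean on day 7, 316 ± 2.83 (SD, n = 2), was 1.82 times that of day 1, 173.5 ± 0.707, a difference of 0.86 on the log2(value + 1) scale with a standard error (SE) of 0.05. Between the MEFs and day 1 the difference was 0.19 (SE 0.05).

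Gjc1 went the opposite way. It stood at 32 and 36 in the MEFs, 17 and 14 on day 1, 8 and 10 on day 3, 6 and 10 on day 5 and finally 8 and 7 on day 7. The MEF libraries lay above all others of this series of days, and days 3, 5 and 7 overlapped each other. The day 1 mean of 15.5 ± 2.12 was 0.456 of the MEF mean of 34 ± 2.83, a log2 difference of -1.09 (SE 0.23), and from day 1 to day 7 it was lower by a further -0.95 (SE 0.23).

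Gjb2 was the most sharply divided of the 4. Its values were 32 and 29 in the untreated MEFs and 0 and 0 on each of days 1, 3 and 5, and they were 1 and 0 on day 7. The day 1 libraries list it at 0, so no fold is given. Gjb5 had the lowest mean of the 4 over the 28 libraries, though on the DMSO days Gjb2 was lower still. Gjb5 stood at 7 and 5 in the MEFs, 4 and 4 on day 1, 1 and 2 on both day 3 and day 5, and 1 and 1 on day 7. Its MEF and day 1 libraries did not overlap, but at such levels a step of 1 is the smallest difference the rounded values can show. Whether fewer cells carried a transcript or each cell carried less of it cannot be told apart in bulk RNA.

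Summed markers of several cell types moved at the same time. Of 8 fibroblast markers, 7 were detected in the MEFs, with Lum at 0, and their summed value went from 7232 to 7436 in the MEFs to 3574 to 3780 on DMSO day 1 and 1385 to 1467 on day 7. The 10 simple-epithelium markers summed to 35 to 42 in the MEFs, where 3 reached 1 and Krt8, Epcam and Esrp1 were among those at 0. On day 7 they summed to 364 to 391. The 9 pluripotent-cell markers went from 0 in the MEFs to 74 to 87 on day 7. The 5 smooth muscle markers summed to 9288 to 9655 in the MEFs and 59 to 60 on day 7. The 13 epidermal keratinocyte markers summed to 31 to 35 in the MEFs, with Krt5, Krt14 and Trp63 among those at 0, and to 326 to 341 on day 1. On that day 8 of the 13 reached 1, and Krt5, Krt15, Krt17, Trp63 and Krt1 were at 0. The 9 macrophage markers summed to 281 to 287 in the MEFs, 237 to 246 on day 1, 416 to 428 on day 3, 407 to 416 on day 5 and 196 to 204 on day 7. The 5 endothelial markers summed to 2 in the MEFs, where Pecam1, Cdh5, Tek and Cldn5 were at 0. They summed to 61 on day 7, where Cldn5 was still at 0. The 9 trophoblast markers summed to 1 to 2 and 10 to 11, with Cdx2 and Elf5 at 0 in both groups. Their part in the connexin levels was not tested.

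p38i in the MEFs, before any induction, went with a higher level of Gja1 and Gjc1, a lower level of Gjb5 and the same level of Gjb2. Gja1 was 189 and 185 in the treated MEFs, above the 153 and 150 of the untreated ones, a ratio of 1.23 and a log2 difference of 0.30 (SE 0.05). Gjc1 was 39 and 45 against 32 and 36, a log2 difference of 0.30 (SE 0.23), with treated libraries above untreated ones by a smaller margin than their own spread. Gjb2 was 28 and 33 against 32 and 29, and both groups had a mean of 30.5. Gjb5 was 2 and 2 against 7 and 5, a log2 difference of -1.21 (SE 0.38). The fibroblast markers summed to 4170 to 4171 in the treated MEFs, the smooth muscle markers to 9159 to 9516 and the macrophage markers to 200, with Aif1 at 0. Their part in these differences was not tested.

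p38i given before the induction left more Gja1 than DMSO at the later days, and p38i given during it left less at every day. The 2 conditions were set against the same DMSO libraries, so the differences are not independent of each other. In pre-p38i cells Gja1 was 160 and 165 on day 1, 238 and 225 on day 3, 325 and 321 on day 5 and finally 406 and 388 on day 7. On day 1 these values lay below the DMSO pair, by -0.09 (SE 0.05) on the log2 scale, and on days 3, 5 and 7 they lay above it, by 0.18, 0.31 and 0.33 (SE 0.05 each). The day 7 mean of 397 ± 12.7 was 1.26 times that of DMSO and the highest of the 14 groups.

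In p38i cells Gja1 was 134 and 130 on day 1, 154 and 168 on day 3, 204 and 199 on day 5 and finally 237 and 231 on day 7. Every one of these pairs lay below the DMSO pair of its day. The log2 differences were -0.39, -0.34, -0.37 and -0.43 on days 1, 3, 5 and 7 (SE 0.05 each), or 0.761, 0.791, 0.774 and 0.741 of the DMSO mean. Gja1 thus still grew with the days under p38i, from 132 ± 2.83 to 234 ± 4.24. Quantile normalization, which moves the median of all genes for p38i against DMSO from -0.08 to 0.04 on day 3 and from -0.08 to 0.03 on day 5, left every one of these 8 differences with its sign.

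**Figure D2:**
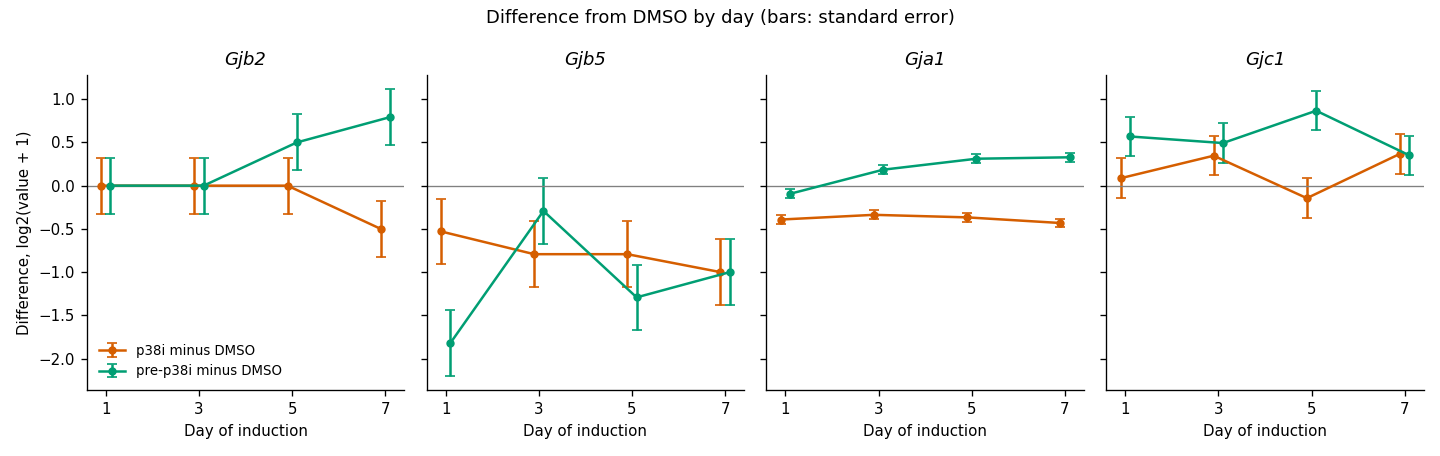
Difference between each p38i condition and DMSO on days 1, 3, 5 and 7, on the log2(value + 1) scale, for the 4 connexins, with bars of 1 standard error of the fit. Gja1 lies between -0.34 and -0.43 under p38i on all days and moves from -0.09 to 0.33 in pre-p38i cells.

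Gjc1 was higher in pre-p38i than in DMSO cells on days 1 to 5. Its values were 26 and 21 on day 1, 13 and 13 on day 3, 15 and 15 on day 5 and finally 12 and 8 on day 7. The first 3 pairs lay above the DMSO pairs of their days, by 0.57, 0.49 and 0.87 on the log2 scale (SE 0.23 each), and the day 7 pair overlapped DMSO. In p38i cells the values were 15 and 18, 15 and 9, 8 and 6, and 9 and 11 on days 1, 3, 5 and 7. Days 1, 3 and 5 overlapped DMSO, with no direction on day 5, where the log2 difference was -0.14 (SE 0.23) and turned to 0.07 after quantile normalization. On day 7 the p38i pair lay above the 8 and 7 of DMSO, by 0.37 (SE 0.23).

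Gjb2 stayed at 0 in all 8 p38i libraries and in the pre-p38i libraries of days 1 and 3. Pre-p38i cells listed it at 1 and 0 on day 5 and at 1 and 2 on day 7, the only induced group with a value in both libraries, and this pair overlapped the 1 and 0 of DMSO. Gjb5 in pre-p38i cells was 1 and 0 on day 1, where DMSO had 4 and 4, then 1 and 1 on day 3 and 0 and 0 on days 5 and 7. In p38i cells it was 3 and 2, 0 and 1, 1 and 0, and 0 and 0 on the 4 days. The day 1 difference of Gjb5 from DMSO was -1.82 (SE 0.38) in pre-p38i and -0.53 (SE 0.38) in p38i cells. All later Gjb5 values were at 2 or less, where rounding sets most of the difference.

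Ordered by mean, the Gja1 levels ran from p38i day 1 (132) through untreated MEFs (151.5), p38i day 3 (161), pre-p38i day 1 (162.5), DMSO day 1 (173.5), p38i-treated MEFs (187), p38i day 5 (201.5), DMSO day 3 (203.5), pre-p38i day 3 (231.5), p38i day 7 (234), DMSO day 5 (260.5), DMSO day 7 (316) and pre-p38i day 5 (323) to pre-p38i day 7 (397). Neighbours in this order overlapped in 3 cases: p38i day 3 with pre-p38i day 1, p38i day 5 with DMSO day 3, and pre-p38i day 3 with p38i day 7. For Gjc1, p38i-treated MEFs (42), untreated MEFs (34) and pre-p38i day 1 (23.5) stood apart from each other at the top. Below them p38i day 1 (16.5), DMSO day 1 (15.5) and pre-p38i day 5 (15) overlapped, and from pre-p38i day 3 (13) down to p38i day 5 (7) every group overlapped the next. For Gjb2 both MEF groups overlapped at the top and every other group stood at a mean of 1.5 or less. For Gjb5 the untreated MEFs (6) and DMSO day 1 (4) stood apart, and below p38i day 1 (2.5) and p38i-treated MEFs (2), which overlapped, the means were 1.5 or less.

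As a sum, the 18 connexin genes considered, which are not all connexin genes of the table, held a larger share of Gja1 on day 7 than in the MEFs. Their summed value was 222 ± 2.83 (SD, n = 2) in untreated MEFs, 193 ± 2.83 on DMSO day 1 and 348 ± 1.41 on day 7. Gja1 made up 68.2% ± 0.0861 of it in the MEFs, 89.9% ± 0.951 on day 1 and 90.8% ± 1.18 on day 7. In p38i-treated MEFs the sum was 262 ± 5.66 and the Gja1 share 71.4% ± 2.62. The sum on day 7 was 262 ± 2.83 in p38i and 431.5 ± 14.8 in pre-p38i cells, with Gja1 shares of 89.3% ± 0.655 and 92.0% ± 0.217.

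**Figure D3:**
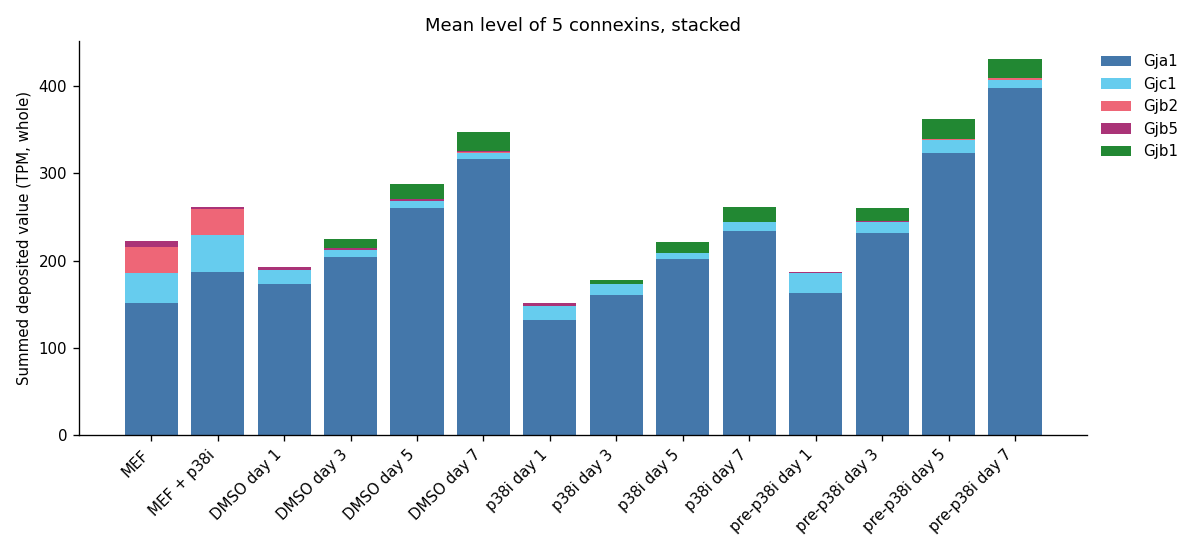
Group means (n = 2) of Gja1, Gjc1, Gjb2, Gjb5 and Gjb1, stacked, in TPM as deposited. Gja1 is the largest segment in all 14 groups, the Gjb2 and Gjc1 segments are widest in the MEFs, and Gjb1 appears from day 3.

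Of the other 14 connexin genes considered, 9 were at 0 in every library, Gja3, Gja4, Gjb6 and Gjc3 never exceeded 1, and Gjb1 passed the filter of a mean of at least 1. Gjb1 encodes Cx32 of liver and Schwann cells. It was tested with limma over all 13230 genes that passed, with Benjamini-Hochberg adjustment, and a gene is said to have risen or fallen where the adjusted p was under 0.05.

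Gjb1 rose between day 1 and day 7 of the induction. It was 0 in all 10 libraries of the MEFs and of day 1, and in DMSO it stood at 13 and 9 on day 3, 19 and 15 on day 5, and then 24 and 21 on day 7. The difference between DMSO day 7 and day 1 was 4.55 (SE 0.20, limma adjusted p = 2.92e-13), in a comparison where 28.4% of all genes rose and 26.1% fell. Gjb1 (ENSMUSG00000047797, chrX:101376378-101385629) was then second to Gja1, at 6.46% of the summed value.

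Gjb1 was lower on day 3 under p38i. It was 3 and 6 on p38i day 3, below the 13 and 9 of DMSO (log2 difference -1.16, SE 0.20, adjusted p = 0.000329, and 0.211 in a fit of these 2 groups alone). On days 5 and 7 it was 13 and 12, and 17 and 18, below the DMSO pairs but short of the threshold (adjusted p = 0.155 and 0.213). Pre-p38i cells had 15 and 14 on day 3, 22 and 24 on day 5 and finally 21 and 22 on day 7 (adjusted p = 0.194, 0.140 and 0.866). Whether the 2 conditions differ from each other was not tested.

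Gap junctions are assembled with the help of scaffolds, trafficking factors and kinases, and they form where cadherins hold cells together. Of 23 partner genes on a list of such factors and of pannexins, 21 passed the filter, Panx2 and Panx3 being at 0 in all libraries. In MEFs given p38i, 3 rose (Csnk1d, Mapk3 and Cdh2) and 1 fell (Dlg1), beside 9.73% and 8.15% of all genes, with a median log2 difference of 0.06 beside 0 for all genes. Only Csnk1d was also called in a fit of these 2 groups alone, and the calls of Cdh2 and Dlg1 were lost when single libraries were left out (adjusted p up to 0.0973 and 0.160). Between MEFs and DMSO day 1, 7 rose and 7 fell, with a median of -0.02 beside 0.14 for all genes, of which 36.6% rose and 18.9% fell. The share of risen genes among all called there went from 65.9% to 47.5% after quantile normalization, which moved the median of all genes from 0.14 to -0.07. Between DMSO day 1 and day 7, 6 rose and 9 fell, with a median of -0.18 beside 0.03 for all genes, of which 28.4% rose and 26.1% fell.

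Among the partner genes considered, the largest differences during the induction were those of Cdh1 and Cav1. Cdh1, E-cadherin, was 0 in all untreated MEF libraries, 10 and 11 on DMSO day 1 and 159 and 151 on day 7, and rose by 3.76 from day 1 to day 7 (SE 0.10, limma adjusted p = 5.62e-17). Ezr, the membrane-cytoskeleton linker ezrin, rose from 53 and 47 in the MEFs to 157 and 152 on day 1 (log2 difference 1.61, adjusted p = 1.03e-12). Panx1, a channel protein of the pannexin family, rose from 12 and 15 to 32 and 34 (1.24, adjusted p = 1.70e-08). The actin-binding drebrin gene Dbn1 fell from 198 and 202 in the MEFs to 61 and 57 on day 1 and 22 and 23 on day 7 (-1.75 and -1.35, adjusted p = 4.41e-14 and 3.75e-12). Cav1, of caveolae, fell from 218 and 226 on day 1 to 32 and 32 on day 7 (-2.76, adjusted p = 4.21e-17), and Prkca, a protein kinase C, fell from 34 and 32 to 11 and 9 and then 3 and 3 (-1.63 and -1.45, adjusted p = 8.56e-07 and 4.56e-06). Tjp1, which encodes the Cx43 partner ZO-1, stood at 52 and 52 in the MEFs, 52 and 54 on day 1 and 71 and 70 on day 7. It rose from day 1 to day 7 (0.41, limma adjusted p = 1.09e-05).

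In pre-p38i cells, 1 partner gene rose and 4 fell on day 1, where 5.4% of all genes rose and 6.24% fell. On day 3 there were 4 in each direction beside 13.8% and 6.87% of all genes (66.7% of all calls were higher, and 50.7% after quantile normalization), on day 5 again 4 and 4 beside 14.3% and 11.3%, and on day 7 also 4 and 4 beside 15.4% and 14.5%. The medians of the partner genes on days 1, 3, 5 and 7 were 0, 0.05, -0.02 and 0.02, beside 0, 0.07, 0.04 and 0.05 for all genes. Against DMSO, Cdh1 was called higher on days 3, 5 and 7, with 268 and 263 against 159 and 151 on day 7. Dbn1 and Cav1 were called lower than in DMSO on all 4 days, at 10 and 9 and at 15 and 14 on day 7 (-1.16 and -1.09, adjusted p = 3.43e-10 and 4.43e-10). Cdh2, N-cadherin, was called lower on days 3, 5 and 7, at 74 and 73 against 89 and 88 in DMSO on day 7. The Dbn1 calls of days 1 and 3 were lost in a fit of the groups compared alone (adjusted p = 0.104 and 0.0508). The Cdh2 calls of days 3 and 5 were lost in that fit too. With a replicate block the day 3 call of Cdh2 was lost as well, and its difference ran from -0.21 to -0.14 over the alternatives.

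In p38i cells, 1 partner gene rose and 3 fell on day 1, beside 3.47% and 12.6% of all genes. On day 3 the counts were 2 and 4 beside 5.22% and 16.2%, on day 5 they were 4 and 1 beside 7.87% and 18.7%, and on day 7 they were 6 and 2 beside 16.5% and 17.6%. After quantile normalization the share of higher calls among all genes went from 21.6% to 41.1% on day 1, from 24.4% to 50% on day 3 and from 29.6% to 52.7% on day 5. The partner medians were -0.10, -0.17, -0.01 and 0.05 on the 4 days, beside -0.08, -0.08, -0.08 and 0. Cdh1 was called lower than in DMSO on all 4 days. It climbed from 3 and 4 on day 1 to 71 and 70 on day 7 under p38i, where DMSO went from 10 and 11 to 159 and 151 (log2 difference on day 7 -1.13, adjusted p = 3.64e-08). Cdh2 was called higher than in DMSO on days 3, 5 and 7, at 134 and 145 on day 7. Tjp1 was called lower than in DMSO on days 1 and 3 (-0.41 and -0.36, limma adjusted p = 7.27e-05 and 0.000204) and was not called on days 5 and 7. Csnk1d, a casein kinase 1 of the kind that phosphorylates Cx43, was called higher than in DMSO on all 4 days, at 187 and 180 on day 7 against 112 and 114. In a fit of the groups compared alone, the day 1 call of Cdh1 and the day 3 call of Csnk1d were lost (adjusted p = 0.0600 and 0.0622). The day 5 call of Cdh2 was lost in that fit too.

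**Figure D4:**
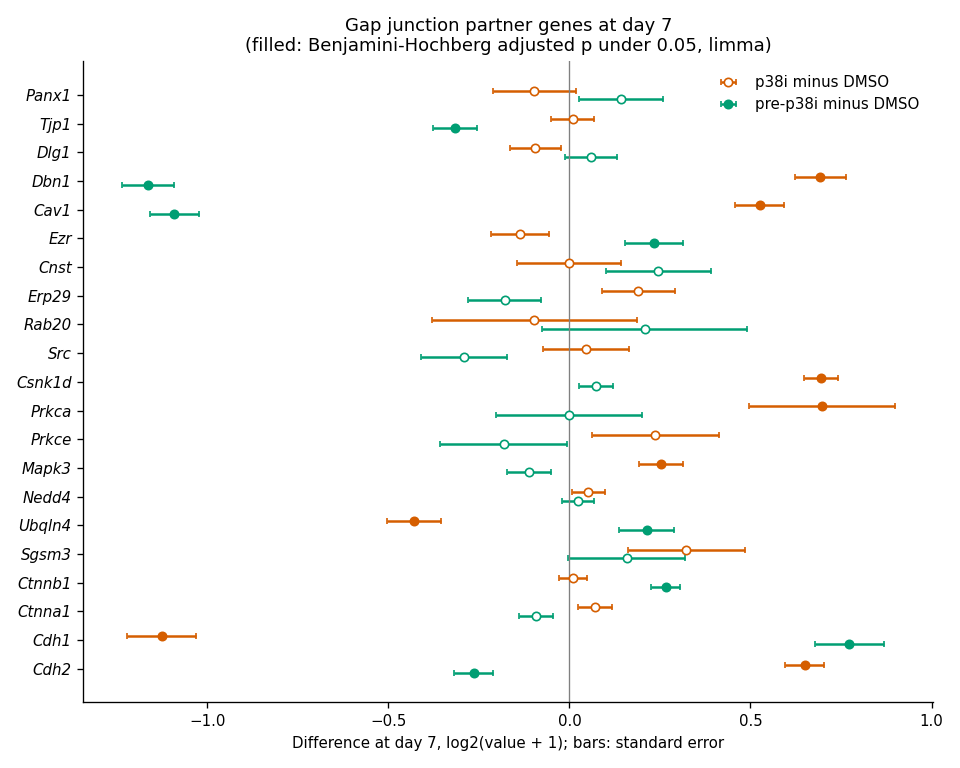
Difference from DMSO on day 7 of the 21 partner genes tested, on the log2(value + 1) scale, for p38i and pre-p38i cells, with bars of 1 standard error and filled points where the limma adjusted p was under 0.05. Cdh1 lies at -1.13 under p38i and at 0.77 in pre-p38i cells, and Dbn1, Cav1 and Cdh2 lie on the opposite sides.

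Marker sums differed between the conditions too. On day 7 the simple-epithelium markers summed to 150 to 169 in p38i and 733 to 780 in pre-p38i cells, the pluripotent-cell markers to 8 to 10 and 132 to 136, and the fibroblast markers to 1533 to 1581 and 776 to 830, beside the DMSO sums given above. On day 7 Gja1 was lower in the p38i and higher in the pre-p38i libraries than in DMSO, in the order of these epithelial and pluripotent sums. The MEFs did not share this order, with mean Gja1 at 187 in treated and 151.5 in untreated MEFs. Their epithelial sums overlapped, at 37 to 43 and 35 to 42, and their pluripotent sums were 0. The macrophage markers summed to 189 to 217 in p38i and 34 to 45 in pre-p38i cells on day 7, where Csf1r and Aif1 were at 0, and the smooth muscle markers to 75 to 82 and 18 to 23. On day 1, p38i cells had sums of 2456 to 2477 for the fibroblast, 22 to 25 for the simple-epithelium, 171 to 185 for the macrophage and 1834 to 1890 for the smooth muscle markers, beside 3574 to 3780, 28 to 31, 237 to 246 and 1557 to 1687 in DMSO. Pre-p38i cells on day 1 had 2565 to 2667, 26 to 29, 80 to 88 and 751 to 755. The pluripotent-cell sums were 0 or 1 in all 3 conditions on that day. The part of these markers in the connexin differences was not tested.

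Within 100 kb of the 4 genes the table holds 20 genes that are no connexins, of which 2 passed the filter, Eftud2 and Kif18b beside Gjc1. Eftud2 (chr11:102838473-102880985), a spliceosome GTPase, lies 18773 bases from Gjc1, and Kif18b (chr11:102905529-102925124), a mitotic kinesin, 85829 bases. Against DMSO, Kif18b was called higher in pre-p38i cells on days 3, 5 and 7 (0.52, 0.74 and 0.66 on the log2 scale, SE 0.09 each, adjusted p = 0.000659, 9.22e-06 and 2.72e-05) and lower in p38i cells on days 1, 5 and 7 (-0.33, -0.43 and -0.998, adjusted p = 0.0216, 0.00211 and 1.63e-07). In p38i-treated MEFs it was called higher than in untreated ones (0.32, adjusted p = 0.0221). The calls in MEFs and on p38i day 1 were lost after quantile normalization and without single libraries (adjusted p up to 0.186 and 0.195). Eftud2 was called higher in pre-p38i cells on days 5 and 7 (0.27 and 0.30, SE 0.05 each) and lower in p38i cells on day 7 (-0.22, adjusted p = 0.00311). The shares of all genes called in these comparisons are given with the partner genes above. A fit of the groups compared alone lost the Kif18b calls of pre-p38i day 3 and p38i day 5 (adjusted p = 0.0665 and 0.0666) and the Eftud2 calls of pre-p38i day 5 and p38i day 7 (adjusted p = 0.0773 and 0.0576). The same fit also lost the Kif18b calls in MEFs and on p38i day 1. From MEFs to DMSO day 1, where Gjc1 went from a mean of 34 to 15.5, Eftud2 went from 109.5 to 96.5 and Kif18b from 17 to 21. Eftud2 was called lower and Kif18b higher there, and a fit of these groups alone lost both calls.

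The genes whose group means followed each connexin most closely over the 14 groups were found by Pearson's r on the log2(value + 1) scale, among the 10666 genes whose mean was 5 or more. The groups share time points and treatments, so r is given as a description without a p. For Gja1 they were Psip1 (0.98), Xab2 (0.97), Zfp110 (0.97), Pdcd7 (0.97) and Wiz (0.97). For Gjc1 they were Msto1 (0.95), Rhoa (0.94), E2f7 (0.93), Morc4 (0.93) and Brip1os (0.93). For Gjb2 they were Lmod1 (0.98), Wisp2 (0.98), Carm1 (0.97), Ier5 (0.97) and Gpat4 (0.97), and there r rests on the step between the 2 MEF groups and the other 12. For Gjb5, at a mean of 6 or less, they were Ccdc80 (0.92), Ptgs2 (0.91), C1qtnf3 (0.91), Plaur (0.90) and Map3k20 (0.90). With Spearman's rho in place of r, 2 of the 5 genes of Gja1, 1 of Gjc1 and none of Gjb2 and Gjb5 were among the leading 5.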

How the data were processed

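RNA-seq was analysed in 28 mouse libraries, 2 for each of 14 groups taken from the sample labels. The authors deposited a whole-number score for each of 50600 genes, and the libraries sum to between 991287 and 992537, which is what TPM rounded down give. The deposited score was therefore read as TPM. The processing notes in the labels name Bowtie2 2.2.5, RSEM 1.3.0, mm10 and hg38, without saying which build or tool made which file. Depth is unknown, because TPM keeps none, and no counting interval or floor was computed. RNA extraction, library kit and MEF medium are not given alike in the labels and the paper.

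limma (version 3.58.1, R 4.3.3; lmFit and trended eBayes) was fitted to log2(value + 1) of 13230 genes, those averaging 1 or more, all 14 groups in a single model without a replicate block. Benjamini-Hochberg adjusted p-values under 0.05 were called. A fold on the log2(value + 1) scale understates changes of low genes. The connexins, gene lists and marker lists were chosen with earlier results of these data known, so the 4 connexins were given no p-value. The p-values of Gjb1 and of the partner genes carry the same limit, as these genes were not chosen blind. The fit was tested on simulated data. Some genes that meet the rules below are not reported here, and they were left out of the lists and sums. Named genes were the 4 connexins, other connexins reaching 1, partner genes called with a log2 difference of at least 1 or needed as an example of a role, neighbours (no connexins) within 100 kb that passed the filter, and the 5 genes most like each connexin. Similar transcripts were sought with BLAST 2.17.0+ in GENCODE M21, in which 92.5% of all genes have the same position as in the file. Alternatives were quantile normalization, a minimum mean of 5 or no filter, a pseudocount of 0.1, fitting no groups but those compared, a replicate block and leaving out each replicate.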

Additional observations from a re-analysis of the deposited data

Results flagged for a closer look

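The following differences from DMSO had opposite signs on 2 days of the same condition, with the libraries of the condition above those of DMSO on one day and below them on the other. The difference between the days was not tested for any of them, and many pairs of days were looked at. With 2 libraries in each group, such a separation can readily arise by chance, and several of the differences are small. No share of all genes that meet the same rule is given, so the list does not show that these genes stand out.

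In pre-p38i cells Gja1 lay above DMSO on day 7 (0.33 on the log2 scale) and below it on day 1 (-0.09), a gap of 0.42. Tjp1 (0.17 on day 5 and -0.32 on day 7) had a gap of 0.48, Dlg1 (0.10 on day 3 and -0.27 on day 1) of 0.37, Mapk3 (0.07 on day 1 and -0.11 on day 7) of 0.18 and Ctnna1 (0.18 on day 3 and -0.09 on day 7) of 0.27.

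In p38i cells the partner genes Dbn1 (0.69 on day 7 and -0.17 on day 1) and Cav1 (0.53 on day 7 and -0.10 on day 1) had gaps of 0.86 and 0.63, and Prkce (0.24 on day 7 and -0.42 on day 1) had one of 0.66. Smaller gaps were seen for Nedd4 (0.05 on day 7 and -0.12 on day 1), of 0.18, and for Ctnna1 (0.07 on day 7 and -0.17 on day 3), of 0.24.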

How the results depend on the processing

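Of the log2 differences of the 4 connexins, those of Gjb2 and Gjb5 depended most on the pseudocount. With 0.1 in place of 1, Gjb2 moved to 1.73 and 2.196 for pre-p38i on days 5 and 7, to -1.73 for p38i on day 7, to -8.26 between MEFs and DMSO day 1 and to 1.73 between DMSO days 1 and 7, and Gjb5 moved to -3.63, -3.93 and -3.46 for pre-p38i on days 1, 5 and 7, to -2.196, -2.196 and -3.46 for p38i on days 3, 5 and 7 and to -1.90 between DMSO days 1 and 7. Quantile normalization gave 0.018 for Gjb2 and -1.84 for Gjb5 between DMSO days 1 and 7, and for Gjb5 -0.86 and -0.54 for pre-p38i on days 5 and 7 and -0.29 and -0.57 for p38i on days 3 and 7. It gave -0.29 and -0.31 for Gja1 under p38i on days 3 and 5, 0.12 between MEFs and DMSO day 1 and 0.97 between DMSO days 1 and 7. Leaving out a library gave ranges of -0.40 to -0.28 and -0.45 to -0.29 for Gja1 under p38i on days 3 and 5 and 0.23 to 0.39 for pre-p38i on day 5. For Gjc1 they were 0.0072 to 0.69 and -0.47 to 0.18 under p38i on days 3 and 5, and 0.54 to 1.19 and 0.085 to 0.62 for pre-p38i on days 5 and 7. For Gjb2 they were 0 to 1 between DMSO days 1 and 7, -1 to 0 for p38i on day 7, and 0 to 1 and 0.29 to 1.29 for pre-p38i on days 5 and 7. For Gjb5 they were -1.29 to -0.29 for p38i on days 3 and 5 and -2.32 to -1.32 for pre-p38i on day 1.

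A fit of only the groups compared called fewer of all genes: 904 in place of 2365 in MEFs, 359, 753, 1254 and 2285 in place of 1539, 2729, 3387 and 3952 for pre-p38i on days 1, 3, 5 and 7, and 853, 1044, 978 and 2749 in place of 2128, 2833, 3514 and 4509 for p38i. The partner genes called became 1 in place of 4 in MEFs, 1, 2 and 4 in place of 5, 8 and 8 for pre-p38i on days 1, 3 and 5, and 2, 3 and 3 in place of 4, 6 and 5 for p38i on these days. Leaving out a library left 1515 to 1676 genes in MEFs, 1150 to 1643 for p38i on day 1 and 856 to 950 and 1568 to 2050 for pre-p38i on days 1 and 3. It left 2 to 4 partner genes in MEFs and 2 to 3 and 4 to 6 for pre-p38i on days 1 and 3. Over the 11 comparisons together, Gjb1 was called 2 times, and 1 time when only the groups compared were fitted, and the neighbouring genes 12 and 4 times. In the main fit of these comparisons 3.47% to 36.6% of all genes rose and 6.24% to 26.1% fell.

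Replicate numbers did not pair the libraries: the deviations of same-numbered libraries correlated at -0.0838 to 0.0874 over 91 pairs of groups. With the replicate number as a replicate block, 4287 genes were called for p38i on day 7 and 3722 for pre-p38i on day 7, and the partner genes called for pre-p38i on day 3 became 5 in place of 8. No other count moved by over 1.5 times under the replicate block.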
